A study of Mus musculus with 121 samples.

Results

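Collagen chain genes each encode 1 α chain of a collagen, the main structural proteins of the extracellular matrix. They were taken as all probes whose only annotated gene symbol had the form Col, a number, a and a number, and each gene was read from its brightest probe with a value on at least 90% of arrays. The rule found 53 probes of 41 genes. Of these, 40 genes had such a probe and 36 were bright enough to be tested, among 12962 tested genes of 15163 with such a probe in the whole series. The tested genes were 10 fibrillar chains, 7 basement membrane chains and 19 other chains. Col10a1, Col11a2, Col19a1 and Col25a1 were too dim on average to be tested, and Col4a3 had too few values.

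RNA came from 6 mouse tumours carried as transplants in the hind legs of male C3H/HeMs mice, which were irradiated locally in a single dose, and was measured on CodeLink 1-colour arrays. The tumours were a radiation-induced C3H fibrosarcoma and 5 tumours that arose spontaneously in C3H/He mice: nfsa, also a fibrosarcoma, mmca and mca4 from the mammary gland, and scc7 and nrs1, both squamous cell carcinomas. Transplanted tumours also hold cells of the host. The 121 arrays, 81 after gamma rays and 40 after carbon ions, formed 54 groups of 2 or 3 arrays.
In the gamma experiment the fibrosarcomas and mammary carcinomas were sampled on day 1 at 0, 30, 50 and 70 Gy. Later arrays were of the radiation-induced fibrosarcoma at 30 Gy on days 8 and 16 and at 50 Gy on day 22, of mmca at 0 and 30 Gy on day 9 and at 50 Gy on day 19, of nfsa at 30 and 50 Gy on days 4 and 9, and of mca4 at 30 Gy on day 11 and at 50 Gy on days 25 and 41. The squamous carcinomas had irradiated arrays only in both experiments, scc7 at 30 Gy on day 8 and 50 Gy on days 23 and 35 and nrs1 at 30 Gy on day 8 and 50 Gy on day 15.
In the carbon experiment mmca and mca4 were sampled unirradiated and at hour 6 and days 1, 3, 5 and 20 after 30 Gy. The other 4 tumours were sampled on day 5 and day 20 after 30 Gy of carbon ions (day 42 for scc7), without unirradiated arrays. The age of the mice was not given in the sources used here, and the labels do not say whether arrays of a group came from separate animals, so that p-values may measure technical spread only.

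A collagen molecule is a rope of several α chains wound around each other, and chains of the same type must be made together for the rope to form. Fibrillar collagens build tensile fibres: types I (Col1a1, Col1a2), III (Col3a1) and V (Col5a1 to Col5a3) are made mainly by fibroblasts, and types II and XI (Col2a1, Col11a1) are typical of cartilage. Type IV chains (Col4a1 to Col4a6) form the sheet of basement membranes, where types XV and XVIII (Col15a1, Col18a1) are also found. Among the other chains, type VI forms beaded filaments around cells, type VII anchors epithelia to the dermis, type VIII forms networks, types IX and XIV decorate fibrils, and types XIII, XVII and XXIII span the cell membrane.

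The start regions of 3 sets of collagen genes are shown as examples, although several other collagens changed more. Col1a2 encodes the α2 chain of type I, which rose after irradiation in several tumours. The window from 150 to 1 bases before its annotated start (GRCm38.p6 chr6:4505468-4505617, + strand, RefSeq) holds CCAAT, in capitals, at position -109.
Col1a2: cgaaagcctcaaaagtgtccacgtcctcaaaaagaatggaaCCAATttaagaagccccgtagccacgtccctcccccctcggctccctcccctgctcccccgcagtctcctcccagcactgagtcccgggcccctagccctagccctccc
Col27a1 encodes a fibrillar chain that fell in the mammary carcinomas. The window of the same length before its start (GRCm38.p6 chr4:63215262-63215411, + strand) holds GGGCGG, in capitals, at position -85.
Col27a1: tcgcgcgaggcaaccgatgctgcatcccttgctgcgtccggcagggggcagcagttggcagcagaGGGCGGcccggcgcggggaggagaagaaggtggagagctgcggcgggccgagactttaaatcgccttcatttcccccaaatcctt
Col4a1 and Col4a2, the main chains of basement membrane type IV collagen, lie head to head, and their annotated starts are 21 bases apart. The annotated transcripts overlap at their first bases. The whole stretch from start to start (GRCm38.p6 chr8:11312805-11312826, + strand) lies in both. It is shown in lower case without marking of motifs, although it holds GGGCGG.
Col4a1-Col4a2: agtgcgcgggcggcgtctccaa
Col4a5 and Col4a6 also lie head to head, but their starts are 1343 bases apart with a gap between them instead of an overlap. Promoter windows (250 bases before to 50 after a start) were found for 29 of the 36 tested collagens, 32 windows in all. Only the 250 bases before the start were searched for motifs. CCAAT was present in 37.5% of the 32 windows and in 33.8% of 32851 promoters of all genes. GGGCGG was present in 59.4% against 32.7%, and TATAAA in 9.38% against 12.4%. None of the 3 motifs contains another, all were searched on both strands, and a match describes the letters only.

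Levels are log2 of the deposited intensity, and levels of different probes are not comparable. The median SD of a collagen within a group was 0.31 log2 among gamma arrays and 0.12 among carbon arrays. Gamma arrays lacked values for 9.99 to 18.6% of all probes and carbon arrays for 0.541 to 4.92%. Some missing values belonged to bright collagens: Col3a1 lacked a value on 8 gamma arrays and Col6a1 on 2. All arrays were fitted together and shared 1 estimate of spread per gene. Carbon arrays varied less, so the shared spread can make SEs and adjusted p-values too small in gamma comparisons and too large in carbon comparisons. Counts from separate fits are given below.
Some labels need a caution. In the carbon experiment the unirradiated arrays labelled mca4 correlated more with gamma mmca (r = 0.85 across 8689 genes) than with gamma mca4 (r = 0.55). The carbon arrays labelled mmca and mca4 correlated with each other at r = 0.90, and their gamma counterparts at r = 0.55. Unirradiated carbon arrays of these labels differed in 0 of 36 collagens (2.71% of all genes called by limma at an adjusted p under 0.05), with 5 at an unadjusted p under 0.05 (1 called with the replicate block), and the gamma arrays in 20 (51.8% of all genes). With carbon arrays fitted apart from gamma arrays, 12 collagens were called between the carbon labels, and in a fit of the compared arrays alone 11. The share of all genes was not computed for those fits. Arrays labelled scc7 had low epithelial markers, between -1.52 and -0.71 as the mean log2 of 2 of 8 markers, against 7.61 to 7.95 in nrs1.

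Before irradiation, the fibrosarcomas had higher RNA levels of type I, III and V chains and of Col6a1, Col6a2 and Col6a3 of type VI than the mammary carcinomas, and lower levels of Col4a4, Col4a5 and Col4a6 of basement membranes and of the cartilage-type chains Col9a1, Col9a3 and Col11a1. With limma across all genes tested, 15 of 36 collagens were higher and 11 lower in fibrosarcomas, beside 41.3% of all genes higher and 26.1% lower (67.4% called). Both shares were near this background. By role, 6 of 10 fibrillar chains were higher and 3 lower (median difference 1.88), 0 of 7 basement membrane chains were higher and 4 lower (median -0.36), and 9 of 19 other chains were higher and 4 lower (median 0.21). The median of all genes was 0.12.
Col1a1 measured 5.01 and 5.60 in nfsa, 2.56 and 2.30 in the radiation-induced fibrosarcoma, 2.11 and 2.74 in mca4 and 0.29 and 0.11 in mmca. The arrays of the radiation-induced fibrosarcoma overlapped those of mca4, with nfsa highest and mmca lowest (log2 difference 2.55, SE 0.36, adjusted p = 3.8e-09). Col1a2 measured 5.98 and 6.43 in nfsa, 3.87 and 3.69 in the radiation-induced fibrosarcoma, 3.31 and 3.68 in mca4 and 1.86 and 1.79 in mmca (log2 difference 2.33, SE 0.28, adjusted p = 1.4e-11), with every fibrosarcoma array above every carcinoma array. Col3a1 measured 7.80 (1 array with a value) in nfsa, 7.97 and 7.92 in the radiation-induced fibrosarcoma, 7.09 and 6.97 in mca4 and 4.83 and 5.05 in mmca (log2 difference 1.89, SE 0.28, adjusted p = 1.9e-08), again without overlap. For the α1 chain of type VI, Col6a1 measured 6.996 (1 array with a value) in nfsa, 4.43 (1 array with a value) in the radiation-induced fibrosarcoma, 3.85 and 3.31 in mca4 and 0.64 and 0.93 in mmca (log2 difference 3.53, SE 0.34, adjusted p = 5e-15). When missing values were set to the floor of the intensity scale and quantile normalization was applied as well, the differences of Col3a1 and Col6a1 turned negative (-0.79 and -0.83) and were no longer called.
Col5a1, Col5a2 and Col5a3, type V chains that help to start type I fibrils, were higher in fibrosarcomas by 2.97 ± 0.25, 2.07 ± 0.22 and 1.86 ± 0.19 log2 (± SE). Col6a2 and Col6a3 of type VI were higher by 2.35 ± 0.29 and 2.20 ± 0.20. Col6a5 measured 4.57 and 4.77 in nfsa, -1.47 and -2.27 in the radiation-induced fibrosarcoma, -1.87 and -2.09 in mca4 and -2.69 (1 array with a value) in mmca. Only nfsa had a high Col6a5 level, so its difference between the tumour types (3.74) belonged to 1 fibrosarcoma. The dimmer second probes of Col5a1 and Col6a5 differed by 0.15 and 0.27 and were not called (adjusted p = 0.27 and 0.36). That Col5a1 probe was also not called between the mammary carcinomas (-0.06), in mmca on day 1 (0.06) or in nfsa on day 4 (0.25), where the brighter probe was.

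On the carcinoma side, Col4a6 measured -2.30 and -2.06 in nfsa, -2.58 and -2.43 in the radiation-induced fibrosarcoma, 2.91 and 2.82 in mca4 and 4.17 and 4.26 in mmca (log2 difference -5.88, SE 0.17, adjusted p = 3.6e-41). The fibrosarcoma arrays lay near the floor of -2.98, without overlap with the carcinomas. Its neighbour on the genome, Col4a5, differed by -2.70 ± 0.16, and Col4a4 by -1.51 ± 0.10, but the second probe of Col4a4, of similar mean level, by -0.08 (adjusted p = 0.63, not called). Col4a1 and Col4a2, the chains of most basement membranes, were not called (-0.36 ± 0.17 and -0.19 ± 0.16).
Col9a3 measured 0.89 and 0.95 in nfsa, 1.54 and 1.69 in the radiation-induced fibrosarcoma, 6.51 and 6.35 in mca4 and 5.69 and 5.86 in mmca (log2 difference -4.83, SE 0.18, adjusted p = 1.4e-37). Col11a1 measured 1.45 and 1.54 in nfsa, 2.24 and 2.14 in the radiation-induced fibrosarcoma, 5.42 and 5.50 in mca4 and 5.86 and 5.96 in mmca (log2 difference -3.85, SE 0.32, adjusted p = 3.9e-18). Col9a1 and the type VIII chain Col8a2 were likewise lower in fibrosarcomas, with differences of -2.72 ± 0.10 and -4.64 ± 0.29. The arrays of the tumour types did not overlap for any of these 4 genes.
Markers of other cells moved with these differences: 10 of 11 fibroblast markers, 9 of 10 skeletal muscle markers and 7 of 7 macrophage markers were higher in fibrosarcomas, and 5 of 5 epithelial markers were lower. The mean log2 of 6 of 12 fibroblast markers was 2.92 to 2.98 in nfsa, 1.94 to 2.01 in the radiation-induced fibrosarcoma, 1.66 to 1.77 in mca4 and -0.53 to -0.52 in mmca. Fibrosarcoma cells are themselves fibroblast-like. In these whole tumours fewer cells of a type and less RNA per cell cannot be told apart. The part of the marker differences in the collagen differences was not tested.

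**Figure D1:**
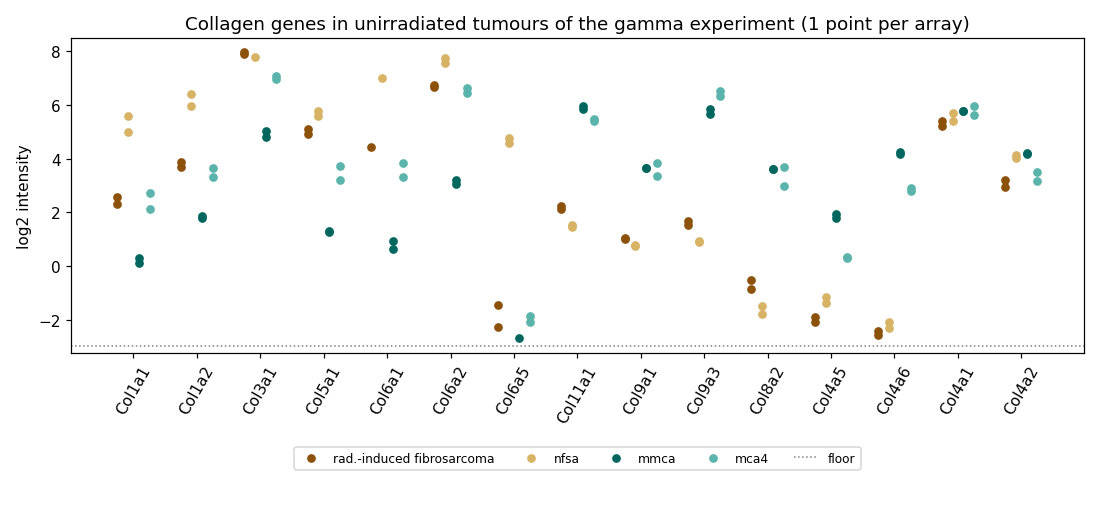
Log2 intensity of 15 collagen genes (vertical axis) in the 4 unirradiated tumours of the gamma experiment, 1 point per array, with the floor of the scale as a dotted line. Col4a6, Col9a3, Col11a1, Col9a1 and Col8a2 were higher in mmca and mca4, Col6a5 was high only in nfsa, and Col1a1 of the radiation-induced fibrosarcoma overlapped mca4.

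Within a tumour type, the 2 fibrosarcomas differed in 14 of 36 collagens, 6 higher and 8 lower in the radiation-induced tumour (45.5% of all genes called), or 3 and 8 under quantile normalization. Type I chains, Col6a1 and Col6a5 were lower there, with log2 differences of -6.54 ± 0.28 for Col6a5, -2.87 ± 0.52 for Col1a1, -2.57 ± 0.56 for Col6a1 and -2.43 ± 0.39 for Col1a2. The membrane-spanning chains Col23a1 and Col13a1 were higher (1.07 ± 0.20 and 0.99 ± 0.28). Leaving out replicate 2 of the radiation-induced fibrosarcoma or either replicate of nfsa left 7 calls.
The mammary carcinomas differed in 20 collagens, 5 higher and 15 lower in mmca, beside 23.5% of all genes higher and 28.4% lower (51.8% called). Of the fibrillar chains 6 of 10 were lower and 1 higher, with a median of -1.64 against -0.05 for all genes. The lower ones included Col1a1 (-2.22 ± 0.52), Col5a1 (-2.16 ± 0.35), Col3a1 (-2.09 ± 0.36), Col5a3 (-2.04 ± 0.26), Col1a2 (-1.67 ± 0.39) and Col5a2 (-1.61 ± 0.32). Col6a2 (-3.41 ± 0.41), Col6a1 (-2.79 ± 0.39) and Col8a1 (-2.36 ± 0.27) were lower too, while Col4a5, Col4a6 and Col4a2 were higher by 1.56 ± 0.23, 1.35 ± 0.25 and 0.87 ± 0.23. Beside them, 9 of 11 fibroblast markers and 10 of 10 muscle markers were lower in mmca (muscle median -6.04), and their part in the result was not tested.
Unirradiated mmca of day 9 differed from day 1 in 6 collagens, 1 higher (6.86% of all genes) and 5 lower (14.4%, 21.3% called), or 2 and 2 under quantile normalization. The lower ones were led by Col24a1 (-0.82 ± 0.29) and the type VI chains Col6a4 (-0.74 ± 0.14) and Col6a6 (-0.63 ± 0.15). Without either day 1 array or without day 9 replicate 1 the count was 2, and without day 9 replicate 2 it was 10.

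The squamous carcinomas were compared after 30 Gy, as the mean of gamma day 8 and carbon day 5. Arrays labelled scc7 had more of Col6a1, Col6a2, Col6a3 and several fibrillar chains than nrs1, and less of the epithelial chain Col17a1, which anchors basal cells, and of Col9a3, Col11a1 and Col13a1. Of 36 collagens 12 were higher and 11 lower in scc7 (67.3% of all genes called), and among fibrillar chains 6 of 10 were higher and 2 lower.
Col17a1 measured 2.18 and 2.27 in scc7 and 4.39, 4.996 and 4.42 in nrs1 after gamma rays, and 2.27 and 2.45 against 4.88 and 4.86 after carbon ions (log2 difference -2.45, SE 0.10, adjusted p = 8.7e-35). Col6a1 measured 5.36 and 5.15 against 1.83, 3.39 and 2.06 after gamma rays and 4.69 and 4.65 against 2.28 and 2.46 after carbon ions (log2 difference 2.56, SE 0.27, adjusted p = 9.9e-14). For neither gene did the tumours overlap in either experiment, and nrs1 replicate 2 of gamma day 8 stood apart from its group for Col6a1.
Col9a3 (-3.28 ± 0.17), Col11a1 (-2.44 ± 0.30) and Col13a1 (-2.31 ± 0.19) were lower in scc7. Col6a2 (2.10 ± 0.27), Col6a3 (1.80 ± 0.19), Col27a1 (1.76 ± 0.13), Col5a3 (1.67 ± 0.18) and Col4a5 (1.53 ± 0.16) were higher. Epithelial markers were lower in scc7 for 5 of 6 genes and macrophage markers higher for 7 of 7, and their part in these differences was not tested.

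On day 1 after gamma rays, more collagens were called in mmca than in the other tumours, and type I, III and V chains and Col6a1 and Col6a2 of type VI rose there. Averaged over 30, 50 and 70 Gy, 13 of 36 collagens were higher and 7 lower than at 0 Gy in mmca, beside 18% of all genes higher and 15% lower (33.1% called), or 16 and 5 under quantile normalization. Of the fibrillar chains 6 of 10 rose and 1 fell, with a median of 0.92 against 0.01 for all genes. Of the basement membrane chains 2 of 7 rose and 4 fell (median -0.51). By dose, in comparisons added after the data were seen, 9 collagens were higher and 7 lower at 30 Gy (41.7% of all genes called), 13 and 5 at 50 Gy (20.3%) and 8 and 4 at 70 Gy (26.4%).
In mmca, Col1a2 measured 1.86 and 1.79 at 0 Gy, 2.53 and 2.24 at 30 Gy, 4.30 and 4.32 at 50 Gy and 3.26 and 3.29 at 70 Gy (log2 change 1.49, SE 0.32, adjusted p = 0.00019). All irradiated arrays were above the 0 Gy arrays, and 50 Gy was highest. Col1a1 measured 0.29 and 0.11 at 0 Gy, 0.28 and 0.25 at 30 Gy, 2.85 and 2.77 at 50 Gy and 1.42 and 1.58 at 70 Gy (log2 change 1.33, SE 0.42, adjusted p = 0.011), so the 30 Gy arrays overlapped the controls. Without either 0 Gy array Col1a1 was not called (adjusted p = 0.063 and 0.12).
Col3a1 measured 4.83 and 5.05 at 0 Gy, 5.78 and 5.72 at 30 Gy, 6.99 and 6.66 at 50 Gy and 5.73 and 5.83 at 70 Gy (log2 change 1.18, SE 0.29, adjusted p = 0.0011), with 50 Gy again highest. Col8a1, the short network chain of type VIII, measured 0.53 and 0.20 at 0 Gy, 2.48 and 2.35 at 30 Gy, 1.63 and 1.90 at 50 Gy and 1.17 and 1.32 at 70 Gy (log2 change 1.44, SE 0.22, adjusted p = 2.3e-07), with 30 Gy highest. Neither overlapped its controls. Col6a1, Col6a2, Col5a1 and Col5a2 rose by 1.39 ± 0.32, 1.37 ± 0.33, 1.35 ± 0.28 and 1.25 ± 0.26. Col20a1, a fibril-associated chain, fell (-1.38 ± 0.18), as did Col27a1 (-0.69 ± 0.16) and Col4a4 (-0.57 ± 0.12), whose second probe was not called (-0.05).
The change in mmca was set against the mean change of the other 3 tumours in a test of the difference, added after the data were seen. It was more positive in mmca for 12 of 36 collagens and more negative for 5 (38.3% of all genes called), and for 6 and 1 of the 10 fibrillar chains. The differences were 2.09 ± 0.49 for Col1a1, 1.91 ± 0.38 for Col6a2, 1.81 ± 0.33 for Col5a1, 1.52 ± 0.25 for Col8a1, 1.29 ± 0.35 for Col3a1 and 1.20 ± 0.37 for Col1a2. Without 0 Gy replicate 2 of mmca 11 collagens were called, and the count in mmca itself was 12 without either 0 Gy array.
Stromal markers were also highest at 50 Gy in mmca. The mean of 6 fibroblast markers was -0.53 to -0.52 at 0 Gy, -0.03 to -0.01 at 30 Gy, 1.41 to 1.45 at 50 Gy and 0.47 to 0.53 at 70 Gy. The mean of 4 of 14 muscle markers was -0.15 to -0.14, 1.94 to 2.005, 5.21 to 5.31 and 0.98 to 1.00 in the same order. In all, 6 of 11 fibroblast, 5 of 10 muscle and 5 of 7 macrophage markers rose and 0 of these fell. Their part in the collagen changes was not tested.

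**Figure D2:**
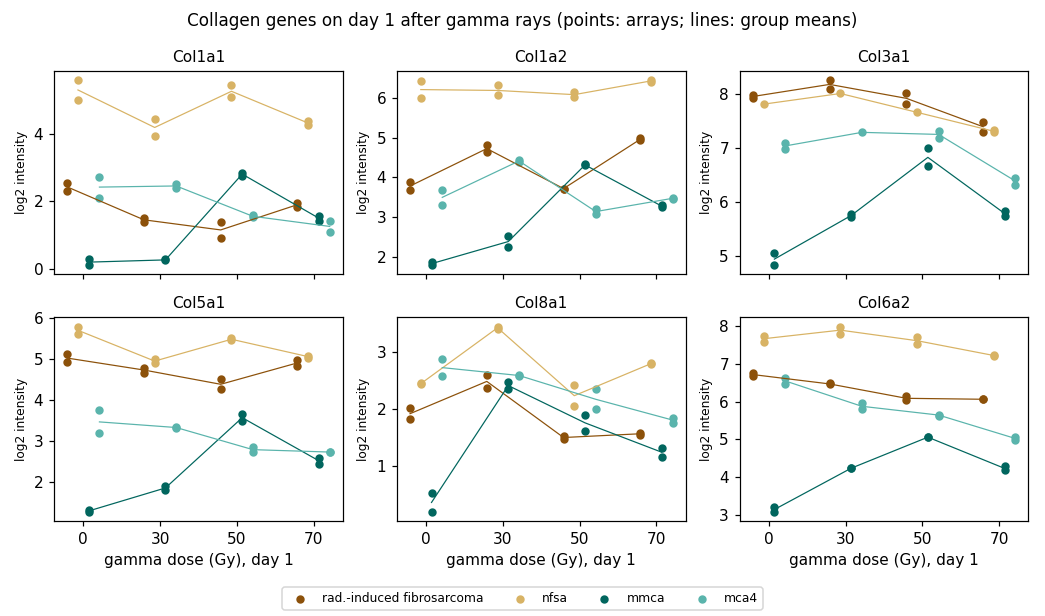
Log2 intensity of 6 collagen genes on day 1 (vertical axes) by gamma dose in Gy (horizontal axes), with 1 point per array and lines through group means of 4 tumours. In mmca the 0 Gy arrays were lowest for each gene but Col1a1, whose 30 Gy arrays overlapped them, and 50 Gy lay above 70 Gy for Col1a1, Col1a2 and Col3a1.

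In the other tumours fewer collagens were called on day 1. The radiation-induced fibrosarcoma had 3 higher and 5 lower (50.9% of all genes called), nfsa 1 higher (9.32%) and 3 lower (19.7%, 29% in all), and mca4 5 higher and 6 lower (42.8%), each a smaller share than that of all genes. Under quantile normalization the split turned to 7 higher and 3 lower in the radiation-induced fibrosarcoma and to 5 and 4 in mca4. Without 0 Gy replicate 1 or 2 the counts were 5 and 4 in the radiation-induced fibrosarcoma, 2 and 1 in nfsa, and 5 and 5 in mca4. In the radiation-induced fibrosarcoma Col9a3 measured 1.54 and 1.69 at 0 Gy, 3.22 and 3.24 at 30 Gy, 2.999 and 3.10 at 50 Gy and 2.98 and 3.15 at 70 Gy (log2 change 1.50, SE 0.21, adjusted p = 6.5e-09), with all irradiated arrays above the controls. In mca4 Col5a3 measured 5.31 and 5.32 at 0 Gy, 4.61 and 4.48 at 30 Gy, 4.64 and 4.54 at 50 Gy and 4.28 and 4.37 at 70 Gy (log2 change -0.83, SE 0.21, adjusted p = 0.0012), with all irradiated arrays below the controls. Col5a3 also fell in nfsa (-0.82 ± 0.21), a call lost without 0 Gy replicate 2 (adjusted p = 0.057).
Col18a1, whose fragment endostatin is known to inhibit vessel growth, rose in 3 of the 4 tumours. It measured 5.20 and 5.12 at 0 Gy, 5.98 and 6.11 at 30 Gy, 5.67 and 5.85 at 50 Gy and 5.66 and 5.85 at 70 Gy in the radiation-induced fibrosarcoma (log2 change 0.69, SE 0.18, adjusted p = 0.00067). In nfsa it measured 4.54 and 4.67 at 0 Gy, 5.36 and 5.46 at 30 Gy, 5.04 and 5.21 at 50 Gy and 5.12 and 5.01 at 70 Gy (log2 change 0.60, SE 0.18, adjusted p = 0.007). In mmca it measured 4.80 and 4.83 at 0 Gy, 5.74 and 5.51 at 30 Gy, 5.43 and 5.50 at 50 Gy and 5.63 and 5.75 at 70 Gy (log2 change 0.78, SE 0.17, adjusted p = 0.00033). In these 3 tumours no irradiated array overlapped the controls. In mca4, Col18a1 measured 5.62 and 5.61 at 0 Gy, 5.54 and 5.53 at 30 Gy, 5.76 and 5.80 at 50 Gy and 5.49 and 5.74 at 70 Gy and was not called (log2 difference 0.03). Whether mca4 differed from the other tumours for this gene was not tested. The call in nfsa was lost without 0 Gy replicate 1 (adjusted p = 0.096).
Averaged over the 4 tumours, 9 collagens were higher and 9 lower (59.5% of all genes called), of which 1 higher and 1 lower stayed called when each group counted as 1 value: Col18a1 (0.52 ± 0.09) and Col4a1 (-0.52 ± 0.10). Col4a1 fell in the radiation-induced fibrosarcoma (-0.71 ± 0.20), mmca (-0.52 ± 0.20) and mca4 (-0.61 ± 0.20). These 3 calls were lost without 0 Gy replicate 2 of the radiation-induced fibrosarcoma (adjusted p = 0.057), either 0 Gy array of mmca (adjusted p = 0.15 and 0.169) and 0 Gy replicate 1 of mca4 (adjusted p = 0.182).
Between 70 and 30 Gy, 3 collagens were higher (23.7% of all genes) and 5 lower (26.5%) as a mean of the 4 tumours (50.2% called). The split turned to 6 higher and 1 lower under quantile normalization and was 1 and 1 when missing values were also set to the floor. Col8a1 (-0.87 ± 0.13) and Col27a1 (-0.44 ± 0.10) were lower at 70 Gy. Col3a1 was lower too (-0.59 ± 0.20), but not under quantile normalization, where its difference was 0.05. Col27a1 lost its call there (-0.12, adjusted p = 0.305) and with missing values at the floor as well (-0.19, adjusted p = 0.118), and its second probe was not called (0.11), while Col8a1 kept its call under all alternatives tried. With each group as 1 value 3 collagens were called. Leaving out any of 6 arrays (30 Gy replicate 2 and 70 Gy replicate 1 of the radiation-induced fibrosarcoma and of mmca, 70 Gy replicate 1 of nfsa and 30 Gy replicate 1 of mca4) lowered the count to 5.

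From day 8 to day 25 after gamma rays, more collagens fell than rose in 3 tumours, while the split in mmca depended on the scaling and on the controls. In these 3 tumours more of all genes fell than rose as well. The share of collagens that fell was near that of all genes in nfsa and in the radiation-induced fibrosarcoma. As a mean of the 4 tumours, 6 collagens were higher and 17 lower than unirradiated arrays, beside 34% of all genes higher and 39.6% lower (73.6% called). The unirradiated arrays were of day 9 in mmca and of day 1 in the other 3 tumours, where time and irradiation cannot be told apart. None of 19 chains outside the fibrillar and basement membrane classes rose and 9 fell, while 5 of 10 fibrillar chains rose and 5 fell. With each group as 1 value 8 collagens were called.
Col5a3 (-1.10 ± 0.11), Col11a1 (-1.02 ± 0.18), Col27a1 (-0.69 ± 0.08), Col4a1 (-0.67 ± 0.10) and Col4a4 (-0.60 ± 0.06) fell in this mean. The second probe of Col4a4 was not called in this mean (-0.07), in mmca (-0.25) or in mca4 (0.17). Col1a2 (0.88 ± 0.16) and Col4a5 (0.46 ± 0.09) rose. The late change differed between fibrosarcomas and mammary carcinomas for 15 collagens, more positive in fibrosarcomas for 4 (12.6% of all genes) and more negative for 11 (26.5%, 39% called).

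In the radiation-induced fibrosarcoma 5 collagens rose and 16 fell on days 8 to 22, beside 28.1% of all genes higher and 39.5% lower (67.7% called). The chains of type I moved apart. Col1a1 measured 2.56 and 2.30 at 0 Gy, 1.01, 0.09 and 0.45 on day 8, 1.44, 1.23 and 0.77 on day 16 and 1.19, 2.02 and 0.85 on day 22 (log2 change -1.43, SE 0.40, adjusted p = 0.0014). Col1a2 measured 3.87 and 3.69, 5.03, 4.57 and 4.92, 5.43, 5.45 and 5.63 and 5.26, 5.74 and 5.46 at the same points (log2 change 1.50, SE 0.31, adjusted p = 1.9e-05). Neither gene's later arrays overlapped the controls, but on day 1 Col1a2 had already measured 4.80 and 4.64 at 30 Gy, 3.72 and 3.72 at 50 Gy and 4.98 and 4.93 at 70 Gy.
The main type IV chains also moved apart. Col4a1 measured 5.22 and 5.41 at 0 Gy against 4.46, 4.17 and 4.45 on day 8, 4.64, 4.87 and 5.23 on day 16 and 3.97, 5.34 and 4.998 on day 22 (log2 change -0.63, SE 0.19, adjusted p = 0.0025), with overlap on days 16 and 22. Col4a2 measured 3.19 and 2.94 against 3.59, 3.23 and 3.80, 4.14, 4.03 and 4.65 and 3.36, 4.55 and 4.12 (log2 change 0.88, SE 0.18, adjusted p = 2.3e-05), without overlap. On day 1 Col4a2 had measured 3.65 and 3.66 at 30 Gy, 2.49 and 2.63 at 50 Gy and 4.16 and 4.17 at 70 Gy. The 50 Gy arrays were below both 0 Gy arrays, and the day 1 change over the doses was not called in this tumour. The fall of Col4a1 was not called without 0 Gy replicate 2 (adjusted p = 0.068) or in a fit of the comparison's own arrays (adjusted p = 0.072).
Other falls in this tumour were Col6a2 (-1.63 ± 0.32), Col11a1 (-1.50 ± 0.35), Col18a1 (-1.19 ± 0.17), Col5a3 (-0.82 ± 0.21), Col6a6 (-0.82 ± 0.11) and Col23a1 (-0.82 ± 0.16). Col18a1, which had risen on day 1, measured 4.60, 3.96 and 3.81 on day 8, 3.50, 4.03 and 3.85 on day 16 and 3.69, 4.31 and 3.94 on day 22, all below its 0 Gy arrays. Of 11 fibroblast markers 1 rose and 3 fell, and of 8 endothelial markers 2 rose and 5 fell, and their part was not tested.

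In nfsa 5 collagens rose and 12 fell on day 9, beside 24.5% of all genes higher and 33% lower (57.5% called), or 2 and 15 under quantile normalization. Col1a1 measured 5.01 and 5.60 at 0 Gy and 3.31, 3.72 and 3.86 and 2.93, 3.16 and 3.33 at 30 and 50 Gy (log2 change -1.92, SE 0.42, adjusted p = 7.8e-05). Col24a1, a fibrillar chain known from developing bone, measured 0.57 and 0.84 at 0 Gy, 2.71, 2.79 and 2.29 at 30 Gy and 2.57, 2.95 and 2.91 at 50 Gy (log2 change 1.996, SE 0.24, adjusted p = 4.2e-11). Neither overlapped the controls. Col11a1 (-1.52 ± 0.37) fell with overlap and Col5a3 (-1.19 ± 0.21) without. Without 0 Gy replicate 2 the count was 8.
The same tumour on day 4 had 4 collagens higher and 14 lower, beside 24.4% of all genes higher and 34.3% lower (58.6% called), or 2 and 16 under quantile normalization. Day 4 and day 9 share the 0 Gy arrays, so their changes are not independent. Col24a1 changed by 1.91 ± 0.24, Col5a3 by -1.78 ± 0.21, Col1a1 by -1.75 ± 0.42, Col7a1 by -1.39 ± 0.27, Col5a1 by -1.29 ± 0.28 and Col14a1 by -1.24 ± 0.23 on day 4. Macrophage markers were higher for 6 of 7 genes on day 4 and 5 of 7 on day 9, and their part was not tested.

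In mca4 3 collagens rose and 16 fell on days 11 and 25, beside 28.6% of all genes higher and 35.1% lower (63.7% called). The median collagen changed by -0.39 and the median gene by -0.06. Col5a3 measured 5.31 and 5.32 at 0 Gy, 3.48, 3.06 and 3.18 on day 11 and 2.93, 3.05 and 3.66 on day 25 (log2 change -2.09, SE 0.21, adjusted p = 1.7e-13). Col6a2 measured 6.62 and 6.47, 4.75, 5.10 and 3.91 and 4.86, 4.91 and 5.55 (log2 change -1.70, SE 0.33, adjusted p = 8.1e-06). All later arrays were below the controls for both genes.
Col4a4 (-1.08 ± 0.12), Col9a3 (-0.95 ± 0.21), Col4a1 (-0.87 ± 0.20), Col27a1 (-0.80 ± 0.16) and Col16a1 (-0.80 ± 0.18) also fell. Col1a2 measured 3.31 and 3.68 at 0 Gy, 4.24, 4.60 and 3.93 on day 11 and 3.52, 4.88 and 5.13 on day 25, with overlap (log2 change 0.89, SE 0.32, adjusted p = 0.013). Its rise and that of Col4a2 (0.54 ± 0.19) were not called without 0 Gy replicate 1 (adjusted p = 0.158 and 0.197) or in a fit of the comparison's own arrays (adjusted p = 0.0644 and 0.128). On day 1 Col1a2 had measured 4.43 and 4.39 at 30 Gy, 3.08 and 3.20 at 50 Gy and 3.49 and 3.46 at 70 Gy in mca4. The 50 Gy arrays were below both 0 Gy arrays, the 70 Gy arrays lay between them, and the day 1 change was not called. Of 11 fibroblast markers 0 rose and 3 fell and of 7 macrophage markers 4 rose and 0 fell, and their part was not tested.

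In mmca, against unirradiated arrays of day 9, 13 collagens rose and 7 fell on days 9 and 19, beside 25.6% of all genes higher and 16.8% lower (42.4% called). The split was 8 higher and 9 lower under quantile normalization, 9 and 7 when missing values were also set to the floor, 10 and 9 with the replicate block and 13 and 12 against the unirradiated arrays of day 1, an alternative added after the data were seen. Of the fibrillar chains 5 of 10 rose and 1 fell, and of the basement membrane chains 1 of 7 rose and 3 fell. Col3a1 measured 5.27 and 4.65 at 0 Gy, 5.49, 5.29 and 7.25 on day 9 at 30 Gy and 7.07 and 7.69 on the 2 of 3 day 19 arrays with a value (log2 change 1.74, SE 0.30, adjusted p = 2.3e-06). Col5a2 measured 4.17 and 3.56, 4.76, 4.66 and 5.87 and 6.14, 6.16 and 5.60 (log2 change 1.67, SE 0.26, adjusted p = 1.9e-07). No irradiated array of these 2 genes overlapped the controls, and day 9 replicate 3 was the highest of its group for both.
Col8a1 measured 0.59 and 0.18 at 0 Gy, 1.77, 0.95 and 1.52 on day 9 and 2.40, 2.53 and 2.48 on day 19 (log2 change 1.56, SE 0.22, adjusted p = 1e-08). Col27a1 measured 6.34 and 6.49, 5.09, 5.43 and 5.61 and 4.40, 4.77 and 4.76 (log2 change -1.41, SE 0.16, adjusted p = 1.8e-11). Col8a1 was higher and Col27a1 lower on every irradiated array than on any control array. Col4a4 (-0.85 ± 0.12), Col9a1 (-0.78 ± 0.11) and Col4a1 (-0.74 ± 0.20) fell.
Col1a2 (1.42 ± 0.32), Col1a1 (1.17 ± 0.42) and Col14a1 (1.01 ± 0.23) were called higher, but their arrays overlapped the controls. Without 0 Gy day 9 replicate 2 none of these 3 was called (adjusted p = 0.073, 0.28 and 0.068), and 13 collagens were called in all. Col1a1 was also not called under quantile normalization (adjusted p = 0.062) or with the replicate block (adjusted p = 0.114). Setting missing values to the floor together with quantile normalization left Col3a1 at 0.03.
Set against the other 3 tumours, in a test added after the data were seen, the late change was more positive in mmca for 16 collagens and more negative for 8, beside 35.2% of all genes more positive and 18.4% more negative (53.6% called). The controls were of day 9 in mmca but of day 1 in the other tumours, so growth time and irradiation cannot be told apart in this test. The difference was 2.50 ± 0.48 for Col1a1, 1.91 ± 0.25 for Col8a1, 1.40 ± 0.20 for Col18a1 and -0.96 ± 0.18 for Col27a1. In mmca 7 of 11 fibroblast, 7 of 13 muscle and 6 of 7 macrophage markers rose on these days. The mean of 6 fibroblast markers was -0.23 to 0.25 at 0 Gy day 9, 0.05 to 1.68 on day 9 at 30 Gy and 0.60 to 1.61 on day 19. Their part in the collagen rise was not tested.

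**Figure D3:**
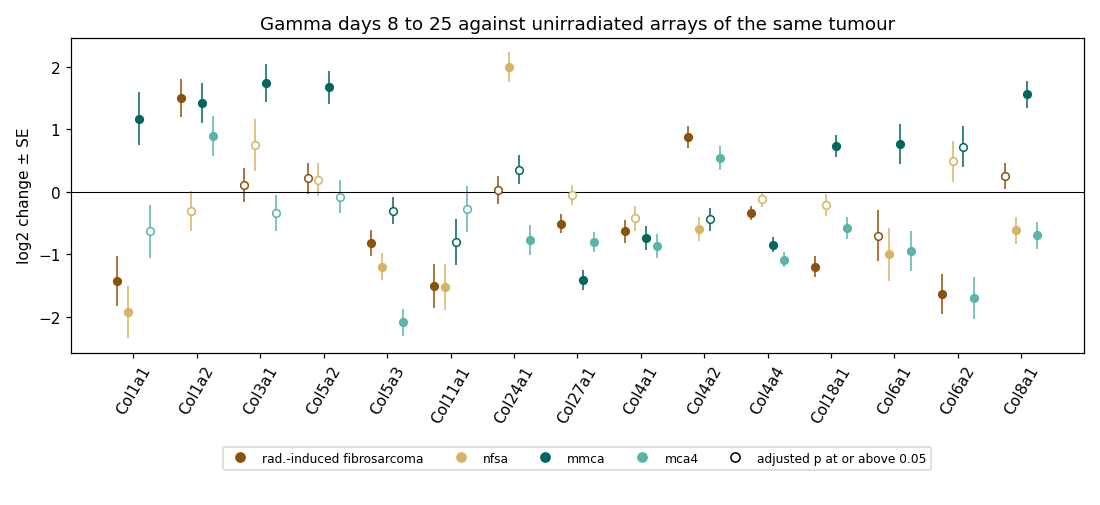
Log2 change ± SE (vertical axis) of 15 collagen genes at gamma days 8 to 25 against unirradiated arrays, 1 point per tumour, with open points where the adjusted p was at or above 0.05. The unirradiated arrays were of day 9 in mmca and of day 1 in the other tumours. Col1a1 fell in both fibrosarcomas and was higher in mmca, Col24a1 rose in nfsa, and Col1a2 and Col4a2 rose in the radiation-induced fibrosarcoma, where Col1a1 and Col4a1 fell.

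Later intervals within a tumour gave further changes. In the radiation-induced fibrosarcoma after 30 Gy, day 16 differed from day 8 in 11 collagens, 7 higher and 4 lower (34.9% of all genes called). Col24a1 measured 0.21, -0.43 and -0.41 on day 8 and 1.90, 1.71 and 2.22 on day 16 (log2 change 2.16, SE 0.24, adjusted p = 1.9e-11), without overlap. Col6a1 (1.16 ± 0.32), Col5a2 (0.97 ± 0.26) and Col4a2 (0.73 ± 0.19) rose too. All 13 muscle markers fell over this interval, and their part was not tested. Between 5 and 7 collagens were called without day 8 replicate 1 or 2 or day 16 replicate 1 or 3.
In mca4 after 50 Gy, day 41 differed from day 25 in 13 collagens, 2 higher and 11 lower, beside 17.8% of all genes higher and 15.4% lower (33.2% called). Col1a2 measured 3.52, 4.88 and 5.13 on day 25 and 3.64 and 1.27 on day 41 (log2 change -2.06, SE 0.36, adjusted p = 7.6e-06), and Col3a1 6.82, 6.79 and 7.65 and 6.12 and 3.99 (log2 change -2.03, SE 0.32, adjusted p = 1.8e-06). The low level was that of day 41 replicate 2: without it 2 collagens were called, and neither Col1a2 nor Col3a1 (adjusted p = 0.12 and 0.051). Fibroblast markers were lower for 9 of 11 genes and macrophage markers for 7 of 7, with a fibroblast mean of -0.53 to 0.61 on the 2 arrays of day 41 against 1.20 to 2.36 on day 25. Col2a1, the chain of cartilage fibrils, rose from -0.79, -1.01 and -0.92 to 0.05 and 0.46 (log2 change 1.16, SE 0.17, adjusted p = 3.7e-07), without overlap.
In scc7 after 50 Gy 2 collagens were lower on day 35 than on day 23, Col7a1 (-1.31 ± 0.34) and Col14a1 (-1.30 ± 0.28), beside 1.13% of all genes called. By limma the count was 0 without day 23 replicate 1 (3 at an unadjusted p under 0.05) or day 35 replicate 1 (4) and 1 without day 35 replicate 2. In nrs1, day 15 after 50 Gy and day 8 after 30 Gy, which differ in dose and time, differed in 4 collagens, beside 12.8% of all genes, and under quantile normalization 3 were higher and 0 lower. Col9a3 (0.63 ± 0.21) and Col4a5 (0.57 ± 0.19) were higher and Col6a2 (-1.03 ± 0.33) and Col3a1 (-0.89 ± 0.29) lower, and only the arrays of Col3a1 did not overlap. By limma, leaving out 1 array gave between 0 calls (without day 8 replicate 3 or day 15 replicate 1, each with 4 at an unadjusted p under 0.05) and 7 (without day 8 replicate 2), and 2 without day 15 replicate 3.

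After 30 Gy of carbon ions, arrays labelled mmca and mca4 were followed from hour 6 to day 20 against unirradiated arrays of the same label. Because the arrays labelled mca4 resembled gamma mmca, values are given for both labels, and whether they stand for separate tumours was not tested. At hour 6, 4 of 36 collagens were higher and 0 lower (9.54% of all genes called): Col3a1 (0.81 ± 0.25), Col5a3 (0.67 ± 0.19), Col6a3 (0.64 ± 0.20) and Col20a1 (0.63 ± 0.16). Without the arrays labelled mca4 none of these 4 was called and 1 other collagen was, Col4a4 (-0.53 ± 0.15). Col3a1 lost its call on leaving out any 1 of the 8 arrays (adjusted p = 0.057 to 0.097), under quantile normalization (0.51, adjusted p = 0.27) and with missing values at the floor as well (0.64, adjusted p = 0.993). Omitting mmca 0 Gy replicate 2 or mca4 0 Gy replicate 1 left 1 call, and omitting hour 6 replicate 1 of mmca, hour 6 replicate 2 of mca4 or 0 Gy replicate 2 of mca4 left 2. When carbon arrays were fitted apart from gamma arrays, 15 collagens were called at hour 6 and 13 on day 1. The share of all genes called in that fit was not computed, so these counts have no background beside them.
On day 1 Col18a1 was higher (0.53 ± 0.15) and Col20a1 lower (-0.54 ± 0.16), 2 of 36 beside 8% of all genes. By limma, leaving out any of the 8 arrays left 1 call, or 0 (3 at an unadjusted p under 0.05) without day 1 replicate 2 of mmca or replicate 1 of mca4, and Col18a1 was called in the arrays labelled mmca alone (0.93 ± 0.21).
On days 3 and 5, 12 collagens were higher and 13 lower, beside 21.8% of all genes higher and 37.2% lower (59% called). Of the basement membrane chains 2 of 7 rose and 5 fell, and of the fibrillar chains 5 of 10 rose and 2 fell. Col8a2 changed most (log2 change -2.19, SE 0.26, adjusted p = 3.9e-11), followed by Col27a1 (-0.94 ± 0.12), Col7a1 (0.93 ± 0.21), Col1a1 (0.91 ± 0.32) and Col18a1 (0.90 ± 0.13). Without the arrays labelled mca4, 15 collagens were called, Col8a2 among them (-1.88 ± 0.35). Of 11 fibroblast markers 5 rose and 1 fell and 7 of 7 macrophage markers rose, and their part was not tested.

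By day 20, type I and III chains, Col5a1 and Col5a2 had risen, and the type IV and IX chains tested (Col4a1, Col4a2, Col4a4, Col4a5, Col4a6, Col9a1 and Col9a3) had fallen. Of 36 collagens 15 were higher and 14 lower, beside 27.3% of all genes higher and 43.7% lower (71% called). The median collagen changed by 0.05 and the median gene by -0.14. Of the fibrillar chains 5 of 10 rose and 3 fell (median 0.59), of the basement membrane chains 2 of 7 rose and 5 fell (median -0.96), and of the other chains 8 of 19 rose and 6 fell (median 0.26).
Col1a1 measured 1.83 and 1.86 before and 3.40 and 3.58 on day 20 in arrays labelled mmca, and 2.01 and 1.75 before and 4.03 and 3.69 on day 20 in arrays labelled mca4 (log2 change 1.81, SE 0.36, adjusted p = 1.1e-05). Col3a1 measured 5.81 and 5.93 before and 7.56 and 7.24 on day 20 in arrays labelled mmca, and 5.87 and 5.74 before and 7.70 and 7.35 on day 20 in arrays labelled mca4 (log2 change 1.62, SE 0.25, adjusted p = 5.9e-08). All day 20 arrays were above all unirradiated arrays for both genes. Col1a2 (1.57 ± 0.28), Col5a1 (1.32 ± 0.25) and Col5a2 (1.68 ± 0.23) rose as well.
Col14a1, a chain on the surface of type I fibrils, measured 2.43 and 2.45 before and 3.75 and 3.94 on day 20 in arrays labelled mmca, and 2.26 and 2.28 before and 3.96 and 3.88 on day 20 in arrays labelled mca4 (log2 change 1.52, SE 0.20, adjusted p = 2.8e-10). On day 5 it measured 2.07 and 2.16 in arrays labelled mmca and 2.44 and 2.26 in those labelled mca4, below every day 20 array. Col18a1 measured 4.42 and 4.64 before and 5.73 and 5.92 on day 20 in arrays labelled mmca, and 5.27 and 5.17 before and 6.06 and 6.18 on day 20 in arrays labelled mca4 (log2 change 1.10, SE 0.15, adjusted p = 1.6e-09), and on day 5 already 5.73 and 5.96 in arrays labelled mmca and 6.16 and 5.98 in those labelled mca4. Neither gene's day 20 arrays overlapped the unirradiated arrays. Col8a1 (1.41 ± 0.19), Col6a1 (1.18 ± 0.28), Col23a1 (1.04 ± 0.14) and Col6a5 (1.03 ± 0.20) rose too, the last with overlap.

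Among the falls, Col9a1 measured 3.86 and 4.11 before and 1.85 and 1.83 on day 20 in arrays labelled mmca, and 3.71 and 3.84 before and 1.77 and 1.47 on day 20 in arrays labelled mca4 (log2 change -2.15, SE 0.10, adjusted p = 4.3e-31). Col27a1 measured 6.38 and 6.66 before and 4.26 and 4.27 on day 20 in arrays labelled mmca, and 6.08 and 5.94 before and 4.29 and 4.06 on day 20 in arrays labelled mca4 (log2 change -2.04, SE 0.14, adjusted p = 6e-22). Col4a1 measured 5.69 and 5.84 before and 4.44 and 4.37 on day 20 in arrays labelled mmca, and 5.41 and 5.28 before and 4.43 and 4.17 on day 20 in arrays labelled mca4 (log2 change -1.20, SE 0.17, adjusted p = 4e-09). For all 3 genes the day 20 arrays were below all unirradiated arrays in both labels. The second probes of Col9a1 and Col27a1, dimmer and not used above, changed by -1.30 and -1.90. Those of Col4a4 and Col23a1 also moved as the brighter probes did (-0.66 and 1.37), but those of Col5a1 (-0.35, adjusted p = 0.0087) and Col6a5 (-0.51, adjusted p = 0.038) were called the opposite way.
Col4a2 (-0.96 ± 0.17), Col4a4 (-1.12 ± 0.10), Col4a5 (-0.84 ± 0.16) and Col4a6 (-1.13 ± 0.17) fell with Col4a1, so that all 5 type IV chains tested were lower with limma. Col11a1 (-1.48 ± 0.32), Col9a3 (-1.07 ± 0.18) and Col16a1 (-0.98 ± 0.16) fell too.
Col8a2 took another course: it measured 3.63 and 3.32 before and 2.96 and 2.79 on day 20 in arrays labelled mmca, and 3.97 and 3.97 before and 2.24 and 2.68 on day 20 in arrays labelled mca4, but on day 5 1.41 and 1.26 in arrays labelled mmca and 1.48 (1 array with a value) in those labelled mca4. Its rise from day 5 to day 20 in arrays labelled mmca was 1.53 ± 0.40 (adjusted p = 0.0086), and omitting each of the 4 arrays in turn ended that call (adjusted p = 0.0535 to 0.099). Its fall at day 20 (-1.06 ± 0.29) was not called in the arrays labelled mmca alone (adjusted p = 0.196).
Taken alone, arrays labelled mmca had 13 collagens higher and 12 lower (59.4% of all genes called), and those labelled mca4 had 14 and 14 (60%). The change differed between the labels for 0 of 36 collagens (0.286% of all genes called by limma), with 1 at an unadjusted p under 0.05. With carbon arrays fitted apart from gamma arrays the change differed for 2, and in a fit of the compared arrays alone for 1. On day 20, 10 of 11 fibroblast markers, 13 of 13 muscle markers, 7 of 7 macrophage markers and 4 of 6 epithelial markers were higher and 1 fibroblast marker was lower. The fibroblast mean was 0.47 to 0.57 before and 1.55 to 1.57 on day 20 in arrays labelled mmca, and 0.23 to 0.25 and 2.07 to 2.08 in those labelled mca4. The part of these markers in the collagen changes was not tested.

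**Figure D4:**
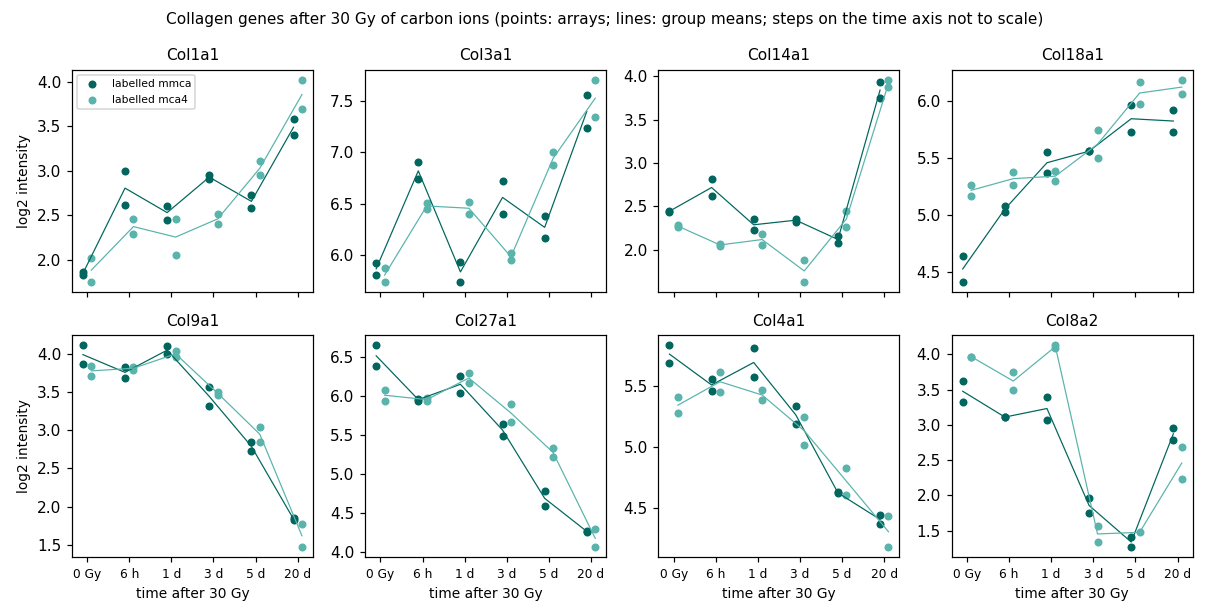
Log2 intensity (vertical axes) of 8 collagen genes before and at 5 times after 30 Gy of carbon ions (horizontal axes, steps not to scale) in arrays labelled mmca and mca4, with 1 point per array and lines through group means. Col1a1, Col3a1 and Col14a1 were highest on day 20, Col9a1 and Col27a1 were lowest then, and Col8a2 was lower on day 5 than on day 20.

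From day 5 to day 20 (day 42 in scc7) after carbon ions, no collagen was called in all 6 tumours. Single tumours called 8.43 to 44.9% of all genes. The share of all genes called in all 6 was not computed, so the absence of a shared collagen is not a result about collagens. As a mean of 6 tumours 6 collagens were higher and 7 lower (43.6% of all genes called). The arrays of all 13 overlapped when the tumours were pooled, where differences in level between tumours enter. With each group as 1 value limma called 0 (3 at an unadjusted p under 0.05). No unirradiated carbon arrays of 4 of these tumours were analysed here, so the values compare a late with an early time after the same dose. Fitted apart from gamma arrays, the carbon comparisons of single tumours below called 17 to 28 collagens, more than the joint fit. Whether the share of all genes called rose as well was not computed.
In the radiation-induced fibrosarcoma 7 collagens rose and 4 fell (44.9% of all genes called). Col8a2 measured 0.76 and 0.96 on day 5 and -2.26 and -2.30 on day 20 (log2 change -3.14, SE 0.40, adjusted p = 1.8e-09). Col7a1, the anchoring fibril chain, measured 1.45 and 1.21 and 3.67 and 3.69 (log2 change 2.35, SE 0.34, adjusted p = 2.5e-08), and Col27a1 3.19 and 3.11 and 4.86 and 4.79 (log2 change 1.68, SE 0.20, adjusted p = 5.2e-11). No arrays overlapped. Without day 5 replicate 1 or day 20 replicate 2 the count was 7. Endothelial markers fell for 6 of 8 genes here and for 8 of 8 in nfsa, and their part was not tested.
In nfsa 1 collagen rose and 3 fell (19.9% of all genes called), or 0 and 3 under quantile normalization. Col11a1 measured 0.89 and 0.99 on day 5 and -1.55 and -1.75 on day 20 (log2 change -2.59, SE 0.45, adjusted p = 6.8e-06), and Col8a2 fell (-1.76 ± 0.40). The third fall, of Col15a1 (-0.96 ± 0.24), was lost without day 5 replicate 2 (adjusted p = 0.052), which left 2 calls.
In scc7 6 collagens rose and 3 fell between day 5 and day 42 (32.5% of all genes called). Col24a1 measured -0.95 and -0.77 on day 5 and -2.76 and -2.98 on day 42, at or near the floor (log2 change -2.01, SE 0.29, adjusted p = 5.7e-08). Col27a1 measured 4.27 and 4.37 and 5.67 and 5.77 (log2 change 1.40, SE 0.20, adjusted p = 2.9e-08), and Col4a5 0.64 and 0.43 and 1.94 and 2.01 (log2 change 1.44, SE 0.23, adjusted p = 7.3e-07). Col18a1 (1.27 ± 0.21) and Col16a1 (1.21 ± 0.22) rose too, and no arrays of these genes overlapped. Of 11 fibroblast markers 4 rose and 4 fell.
In nrs1 3 collagens rose and 11 fell, beside 24.5% of all genes higher and 11.2% lower (35.7% called), and 4 of 10 fibrillar chains fell with 0 rising. The median fibrillar chain changed by -1.03 and the median gene by 0.12. Col5a2 measured 6.18 and 6.30 on day 5 and 4.91 and 4.90 on day 20 (log2 change -1.34, SE 0.32, adjusted p = 0.00057), and Col7a1 1.79 and 1.45 and 0.02 and 0.14 (log2 change -1.54, SE 0.34, adjusted p = 0.00017). Col23a1 measured 0.99 and 1.03 and 2.84 and 2.79 (log2 change 1.81, SE 0.20, adjusted p = 1.9e-11), and Col27a1 3.53 and 3.62 and 2.63 and 2.49 (log2 change -1.02, SE 0.20, adjusted p = 2.4e-05). None of these groups overlapped. Of 11 fibroblast markers 0 rose and 1 fell. The count was 8 or 9 without either day 5 array or without day 20 replicate 2, and Col1a2 (-1.12 ± 0.39) was not called without day 5 replicate 1 or day 20 replicate 2.
In arrays labelled mmca 6 collagens rose and 1 fell from day 5 to day 20 (8.43% of all genes called), or 3 and 1 under quantile normalization. The rises were led by Col14a1 (1.73 ± 0.28), and Col9a1 fell (-0.95 ± 0.13). Leaving out any of the 4 arrays left 2 calls.

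For 5 of 7 pairs of chains of the same collagen type, the correlation was higher over carbon groups than over gamma groups. The correlations below are over group means with each tumour's mean removed, 34 groups for gamma and 20 for carbon. The points share tumours and arrays, 12 of the carbon groups are labelled mmca or mca4, and the correlations are descriptions only. Col1a1 and Col1a2 had r = 0.57 over gamma and 0.94 over carbon groups, and Col4a1 and Col4a2, which share a start region, r = 0.38 and 0.96. Col5a1 and Col5a2 had r = 0.70 and 0.93, and Col6a1 and Col6a2 r = 0.76 and 0.92. Col4a5 and Col4a6 had r = 0.35 and 0.78. The exceptions were Col6a2 and Col6a3 (r = 0.73 and 0.48) and Col8a1 and Col8a2 of type VIII (r = -0.11 and -0.47).
Over carbon groups the collagens most like Col1a2 were Col5a2 (r = 0.95), Col1a1 (r = 0.94) and Col3a1 (r = 0.93). Col9a1 was most like Col4a4 and Col4a1 (r = 0.93 for both) and least like Col8a1 (r = -0.93) and Col1a2 (r = -0.83). Over gamma groups the most similar gene to Col3a1 was Col5a2 (r = 0.85), and Col1a2 and Col9a1 had r = -0.51.

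**Figure D5:**
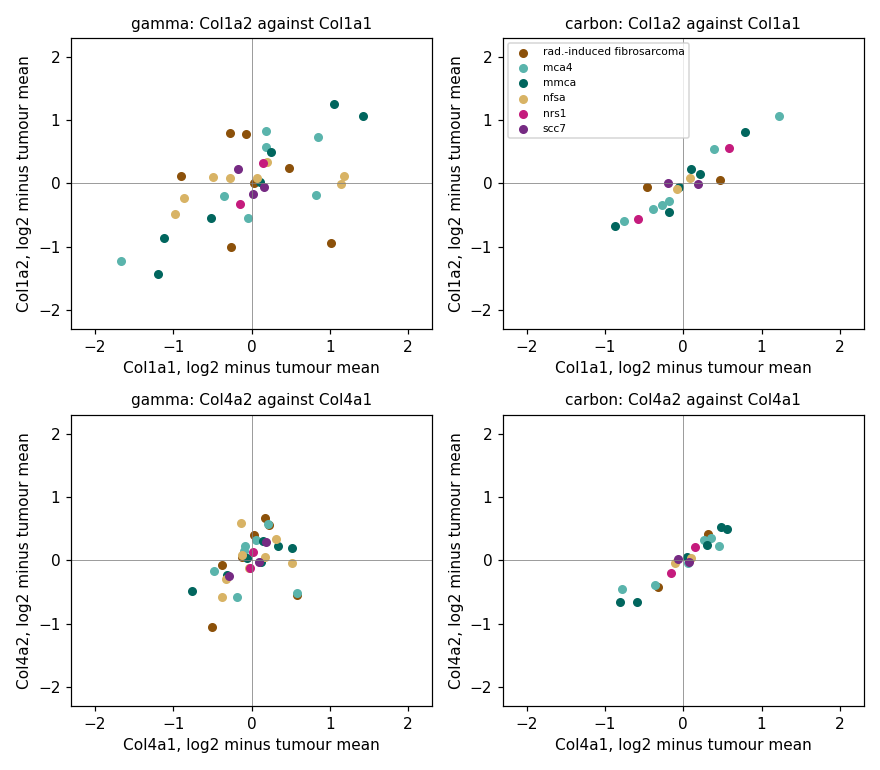
Col1a2 against Col1a1 and Col4a2 against Col4a1, as log2 group means with each tumour's mean removed, for gamma groups (left) and carbon groups (right), 1 point per group coloured by tumour. The carbon groups lie along a line (r = 0.94 and 0.96) and the gamma groups scatter (r = 0.57 and 0.38).

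Genes that process collagen were read from lists of 26 synthesis and crosslinking genes, 6 receptors and 7 cleavage genes tested. In unirradiated tumours 21 of the 26 synthesis genes were higher in fibrosarcomas and 3 lower, beside 41.3% of all genes higher and 26.1% lower. The higher ones included the crosslinking enzymes Lox (3.22 ± 0.30), Loxl1 (3.98 ± 0.28) and Loxl2 (3.14 ± 0.22) and the procollagen enhancer Pcolce2 (4.22 ± 0.19). Of the receptors Ddr2, known from mesenchymal cells, was higher (2.85 ± 0.12) and Ddr1, known from epithelia, lower (-2.48 ± 0.16). Of 7 cleavage genes 6 were higher and 0 lower, led by the collagen-degrading protease Ctsk (4.44 ± 0.31).
At gamma days 8 to 25, 5 of 26 synthesis genes rose and 11 fell as a mean of the 4 tumours, beside 34% of all genes higher and 39.6% lower. The collagen chaperone Serpinh1 fell (-0.62 ± 0.07) while Lox (1.05 ± 0.17) and the prolyl hydroxylase P4ha2 (1.06 ± 0.09) rose. In nfsa on day 9, 1 rose and 12 fell, beside 24.5% of all genes higher and 33% lower.
On carbon day 20, 12 of 26 synthesis genes rose and 10 fell, beside 27.3% of all genes higher and 43.7% lower. Lox (1.75 ± 0.30), Loxl1 (1.64 ± 0.28) and P4ha3 (1.74 ± 0.19) rose, and the lysyl hydroxylases Plod1 (-2.14 ± 0.15) and Plod2 (-1.64 ± 0.17) fell. Of 7 cleavage genes 6 rose and 0 fell, led by the collagenase Mmp13 (2.59 ± 0.28) and Ctsk (2.43 ± 0.31), and of 6 receptors 3 rose, led by Itga11 (2.04 ± 0.27), an integrin chain that binds fibrillar collagen.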

How the data were processed

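The deposited tables give 1 intensity per probe and array, made by the authors from CodeLink arrays of Cy5-labelled RNA (per the labels' protocols). Their scaling and background treatment are not given in the sources used here, so values were kept as deposited. Log2 of the deposited intensity was used after low or negative values had been raised to 0.1269 (-2.98 on the log2 scale), which 5% of the positive values lie below. Missing values stayed missing. Of 36227 probes, 21615 have 1 gene symbol, 681 several and 13931 none in the annotation table. Each gene was read from its brightest probe with values on at least 90% of arrays, and genes under the 20th percentile of mean level were left out. No column of other series was present (0).

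Group means of all 121 arrays were fitted in 1 model (limma 3.58.1, R 4.3.3, moderated with trend, 67 residual degrees of freedom), with Benjamini-Hochberg adjustment over all genes tested and a threshold of 0.05. The fit was tested on simulated data with the same spread per gene in gamma and carbon arrays. The simulation therefore cannot show how sharing the spread between the experiments affects the calls. Samples were grouped by their labels. Other tools were Python 3.11.15, pandas 2.3.3, numpy 2.4.6 and matplotlib 3.10.9. Promoter sequences are from RefSeq (GRCm38.p6).

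The members, lists and comparisons were chosen with earlier results of these data known, and 22 comparisons were added to 34 after the data were seen. In each comparison, values per array are given for called collagens with the largest change whose arrays do not overlap (up to 6), and for Col1a1, Col1a2, Col3a1, Col4a1, Col4a2 and Col6a1, with up to 4 pathway genes per list. Some of these are passed over for length. Marker lists were of fibroblasts, endothelium, skeletal muscle, macrophages and epithelia, with summed levels over the markers that had values on every array. Alternatives were quantile normalization, missing values at the floor together with quantile normalization, a higher floor, no dim filter, every probe, a replicate block, the comparison's own arrays, separate fits, 1 value per group, arrays labelled mca4 or scc7 left out, and each array left out. The number of arrays limits the precision.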

Additional observations from a re-analysis of the deposited data

Results flagged for a closer look

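The change at gamma days 8 to 25 was compared between the tumour types, as the mean of the fibrosarcomas minus the mean of the mammary carcinomas, in a limma test of the difference itself. It differed for 15 of 36 collagens, more positive in fibrosarcomas for 4 and more negative for 11, beside 12.6% of all genes more positive and 26.5% more negative (39% called). Among fibrillar chains the difference was -1.94 for Col1a1, -0.97 for Col11a1 and -0.72 for Col5a1, and 1.22 for Col24a1, 0.83 for Col27a1 and 0.47 for Col2a1. Among basement membrane chains it was -0.78 for Col18a1, -0.63 for Col15a1 and 0.74 for Col4a4. Among the other chains it was -1.11 for Col14a1, -0.74 for Col23a1, -0.61 for Col8a1, -0.54 for Col6a6, -0.36 for Col26a1 and -0.31 for Col17a1. The calls of Col11a1, Col5a1, Col15a1, Col17a1, Col26a1, Col2a1 and Col8a1 were lost in at least 1 of the alternatives tried. The difference of Col4a4 rests on 1 of its 2 probes. Its second probe, of similar mean level, was not called in the late mean (-0.07), in mmca (-0.25) or in mca4 (0.17). The controls were of day 9 in mmca and of day 1 in the other tumours. The days sampled also differed between tumours, so tumour type and day cannot be told apart.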

How the results depend on the processing

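Over the named genes, 236 gene results were recomputed under every alternative that applied to them. Of 4419 recomputed values 4204 kept their direction and call, 209 kept the direction but lost the call (118 of them with 1 array left out) and 6 turned, and 164 of the 236 lost no call. The turned values were all of genes with missing gamma values. With missing values at the floor and quantile normalization they were -0.79 for Col3a1 and -0.83 for Col6a1 between unirradiated tumour types, 2.63 for Col3a1 at 70 against 30 Gy, -0.47 for Col3a1 in late mmca against the other tumours and 4.00 for Col6a1 in late nfsa. With quantile normalization alone it was 0.0529 for Col3a1 at 70 against 30 Gy.
Counts of called collagens moved past 1.5 times as follows. They stand without the share of all genes called, which was not computed for the alternative scalings and fits. Under quantile normalization the count was 4 (from 7) for late carbon mmca. With missing values at the floor together with quantile normalization it was 8 (from 14) for unirradiated fibrosarcomas, 5 (from 11) for gamma day 1 of mca4, 2 (from 8) for 70 against 30 Gy, 1 (from 6) for unirradiated mmca days 9 and 1, 7 (from 11) for radiation-induced fibrosarcoma day 16 against 8, 1 (from 2) for scc7 day 35 against 23, 1 (from 0) for label difference in unirradiated carbon arrays, 1 (from 7) for late carbon mmca. In a fit of the comparison's own arrays it was 21 (from 8) for gamma day 1 of the radiation-induced fibrosarcoma, 11 (from 4) for gamma day 1 of nfsa, 21 (from 8) for 70 against 30 Gy, 1 (from 6) for unirradiated mmca days 9 and 1, 1 (from 13) for mca4 day 41 against 25, 0 (from 2) for scc7 day 35 against 23, 0 (from 4) for nrs1 day 15 against 8, 15 (from 4) for carbon hour 6, 14 (from 2) for carbon day 1, 1 (from 0) for label difference at carbon day 20, 24 (from 13) for late against early carbon mean, 23 (from 11) for late carbon radiation-induced fibrosarcoma, 21 (from 4) for late carbon nfsa, 19 (from 9) for late carbon scc7, 24 (from 14) for late carbon nrs1, 27 (from 17) for mmca against other tumours on day 1, 11 (from 0) for label difference in unirradiated carbon arrays, 21 (from 7) for late carbon mmca. With gamma and carbon arrays fitted separately, added after the data were seen, it was 5 (from 8) for 70 against 30 Gy, 3 (from 6) for unirradiated mmca days 9 and 1, 6 (from 11) for radiation-induced fibrosarcoma day 16 against 8, 0 (from 2) for scc7 day 35 against 23, 0 (from 4) for nrs1 day 15 against 8, 15 (from 4) for carbon hour 6, 13 (from 2) for carbon day 1, 2 (from 0) for label difference at carbon day 20, 24 (from 13) for late against early carbon mean, 23 (from 11) for late carbon radiation-induced fibrosarcoma, 17 (from 4) for late carbon nfsa, 20 (from 9) for late carbon scc7, 28 (from 14) for late carbon nrs1, 12 (from 0) for label difference in unirradiated carbon arrays, 19 (from 7) for late carbon mmca. With 1 value per group it was 2 (from 18) for gamma day 1 mean, 3 (from 8) for 70 against 30 Gy, 8 (from 23) for gamma days 8 to 25 mean, 0 (from 13) for late against early carbon mean. Without arrays labelled mca4, also added, it was 1 (from 4) for carbon hour 6, 1 (from 2) for carbon day 1, 15 (from 25) for carbon days 3 and 5. For the limma counts of 0 above, the numbers at an unadjusted p under 0.05 were 5 and 3 in the comparisons' own arrays for scc7 and nrs1, 4 and 8 in the separate fit for scc7 and nrs1, and 3 with 1 value per group.
Groups share replicate numbers, but nothing in the labels says that a number marks an animal, batch or day. The correlation of same-numbered deviations was 0.14 to 0.38 over the 15 group pairs of carbon arrays labelled mca4, so same-numbered arrays deviated together there, and -0.02 to 0.46 (median 0.29) in those labelled mmca. Medians were -0.26 to 0.23 in the other tumours and experiments. The highest of these, 0.23 over 3 group pairs of gamma scc7, was close to the median of 0.22 in carbon arrays labelled mca4. With the replicate block the count was 1 (from 0) for label difference in unirradiated carbon arrays, and no other count of collagens moved past 1.5 times. Of the named genes, 6 lost their call with the block, all in late gamma comparisons: Col1a1 in mmca, Col6a1 in nfsa, Col4a2 in mca4 (0.37, adjusted p = 0.0843) and Col5a1, Col11a1 and Col26a1 between tumour types.
Quantile normalization moved the median of all genes by -0.18 to 0.21 (log2) over the comparisons, with the largest shifts for unirradiated mmca days 9 and 1 (0.21), 70 against 30 Gy (0.18), late mmca (-0.17), nfsa day 4 (-0.15), late nfsa (-0.14), unirradiated fibrosarcomas (-0.12) and gamma day 1 of the radiation-induced fibrosarcoma (0.12). With 1 array left out in turn, counts were 5 to 11 for radiation-induced fibrosarcoma day 16 against 8, 7 to 11 for unirradiated fibrosarcomas, 1 to 3 for carbon hour 6, 0 to 1 for carbon day 1, 7 to 9 for late carbon radiation-induced fibrosarcoma, 2 (each time) for late carbon mmca, 2 to 3 for late carbon nfsa, 8 to 12 for late carbon nrs1, 5 to 8 for 70 against 30 Gy, 4 to 11 for gamma day 1 of the radiation-induced fibrosarcoma, 5 to 11 for gamma day 1 of mca4, 12 to 20 for gamma day 1 of mmca, 11 to 17 for mmca against other tumours on day 1, 1 to 5 for gamma day 1 of nfsa, 13 to 21 for late gamma mmca, 8 to 18 for late gamma nfsa, 2 to 16 for mca4 day 41 against 25, 2 to 10 for unirradiated mmca days 9 and 1, 0 to 7 for nrs1 day 15 against 8, 0 to 2 for scc7 day 35 against 23. The cause of these movements was not tested.
Most groups hold 2 arrays, so their number limits the precision, and small comparisons rest on the spread shared over all groups. Gamma arrays were noisier and had more missing values than carbon arrays. Dim probes such as those of Col6a5, Col24a1 and Col8a2 lay near the floor in some tumours, where changes may be understated.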

Other observations

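On gamma day 1 the α2 chains of types I and IV did not follow the order of doses in 2 tumours, a pattern picked out after the values were seen. In the radiation-induced fibrosarcoma Col4a2 measured 3.19 and 2.94 at 0 Gy, 3.65 and 3.66 at 30 Gy, 2.49 and 2.63 at 50 Gy and 4.16 and 4.17 at 70 Gy. In mca4 Col4a2 measured 3.17 and 3.49 at 0 Gy, 4.45 and 4.41 at 30 Gy, 3.35 and 3.18 at 50 Gy and 4.06 and 3.93 at 70 Gy. In both tumours every 30 and 70 Gy array was above every 0 and 50 Gy array. Col1a2 in the radiation-induced fibrosarcoma measured 3.87 and 3.69 at 0 Gy, 4.80 and 4.64 at 30 Gy, 3.72 and 3.72 at 50 Gy and 4.98 and 4.93 at 70 Gy, with the same order. In mca4 Col1a2 measured 3.31 and 3.68 at 0 Gy, 4.43 and 4.39 at 30 Gy, 3.08 and 3.20 at 50 Gy and 3.49 and 3.46 at 70 Gy, where the 70 Gy arrays overlapped the controls.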
